A study of Mus musculus with 6 samples.

Results

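Cluster 6 of the authors' table of single cells is a small group of cells in which immunoglobulin transcripts made up 47.7% to 65.6% of the summed UMIs (unique molecular identifiers, counts of captured transcripts), depending on the library. Its members are the cells that carry the cluster number 6 in that table, and they numbered 177 among 16822 cells (1.05%). All cells came from bone marrow of C57BL/6J (CD45.1) mice, female and 8 to 12 weeks old, and were sorted as LSK cells, which lack lineage markers (Lin-) and carry cKit and Sca1 (cKit+ Sca1+). The PBS group holds 3 libraries from mice injected with PBS. The AML group holds 3 libraries from mice injected with 1000000 C1498 cells, a murine acute myeloid leukemia (AML) line of the CD45.2 allele, without prior conditioning. All mice were sacrificed at day 21, and the sort kept CD45.1+ host cells. C1498 is a single cell line, and the labels do not say whether a library came from 1 mouse or from a pool, so that p-values measure only the spread between these libraries.

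Antibody-secreting cells, the plasma cells and plasmablasts, are the end stage of the B cell lineage. They devote much of their transcription to 1 rearranged heavy chain and 1 rearranged light chain, and they enlarge the endoplasmic reticulum (ER), where antibody chains are folded, glycosylated and assembled before export. In the bone marrow they are long known as a source of serum antibody, and B-1 cells, an innate-like B cell lineage, give rise to many of those that secrete IgM. They are lymphoid effector cells and not stem or progenitor cells, and the markers of each kind are therefore described separately.

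The cells were found in every library that has cells in the table, which holds none of AML 2. There were 57 of 6838 cells in PBS 1, 12 of 934 in PBS 2, 40 of 4398 in PBS 3, 9 of 693 in AML 1 and 59 of 3959 in AML 3. The matrices held between 7089569 and 41220306 UMIs per library. Median UMIs outside immunoglobulin genes were 3458, 7738, 3709, 2187 and 3751 per cluster 6 cell, in the order PBS 1, PBS 2, PBS 3, AML 1 and AML 3, and 4003, 9520, 4366, 2389 and 5879 per other cell.

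Libraries shared cell barcodes, which touches these cells directly. Of the 48510 barcodes over all 6 matrices, 15201 also occurred in another library, and so did 137 of the 177 barcodes of cluster 6, including all 12 in PBS 2. A shared barcode usually held few UMIs in the other library (median 2.31% to 8.27% of those in its own, by pair of libraries) and an immunoglobulin share that differed by -7.10 to 5.82 percentage points (medians). In 3 cells of PBS 1 the order was the reverse: they held 2695, 1850 and 1801 UMIs there and 43435, 29871 and 29318 in PBS 2. The other 174 cells held most of their UMIs in the library under which they are listed.

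Another 4 cells, all in PBS 1, went against the label. Between 90.6% and 92.1% of their UMIs were hemoglobin transcripts, none held more than 1 immunoglobulin UMI, and the authors' class column places all 4 in the HSC (hematopoietic stem cell) class. Doublets were not called here, and how the authors treated them is not stated by the labels or the main text (the expanded methods were not used here). As a measure of mixed droplets, 10 cluster 6 cells held at least 10 UMIs of 14 progenitor genes, and 9 of these were among the 15 cells with over 2 times the median UMIs outside immunoglobulin genes. The gene counts, the list counts that move and the V gene pairs are also given without these 17 cells, the 3 shared, 4 hemoglobin-rich and 10 progenitor-rich ones, which leaves 160 cells.

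Of the 4 markers of the label, Ighm, Igkc and Jchain were present in nearly all cells of cluster 6 apart from the hemoglobin-rich ones. Igha had a UMI in only 3, 1, 3, 0 and 5 cells of cluster 6. Immunoglobulin genes (392 genes in the matrices) took 57.8%, 65.6% and 60.5% of all UMIs of the cells in PBS 1 to 3, 47.7% in AML 1 and 53.9% in AML 3. The median cell stood at 57.2%, 68.0%, 61.2%, 29.5% and 58.0%, while the median of the other cells was at most 0.0201% in every library. Igkc, the kappa light chain constant gene, alone took between 38.6% and 51.8% of the UMIs of cluster 6 per library. Jchain, which joins IgM and IgA into polymers, was detected in 173 of 177 cells. A single cell of another cluster, in PBS 3, reached 42.4% immunoglobulin, and every further cell of the other clusters stayed at or under 3.72%.

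**Figure D1:**
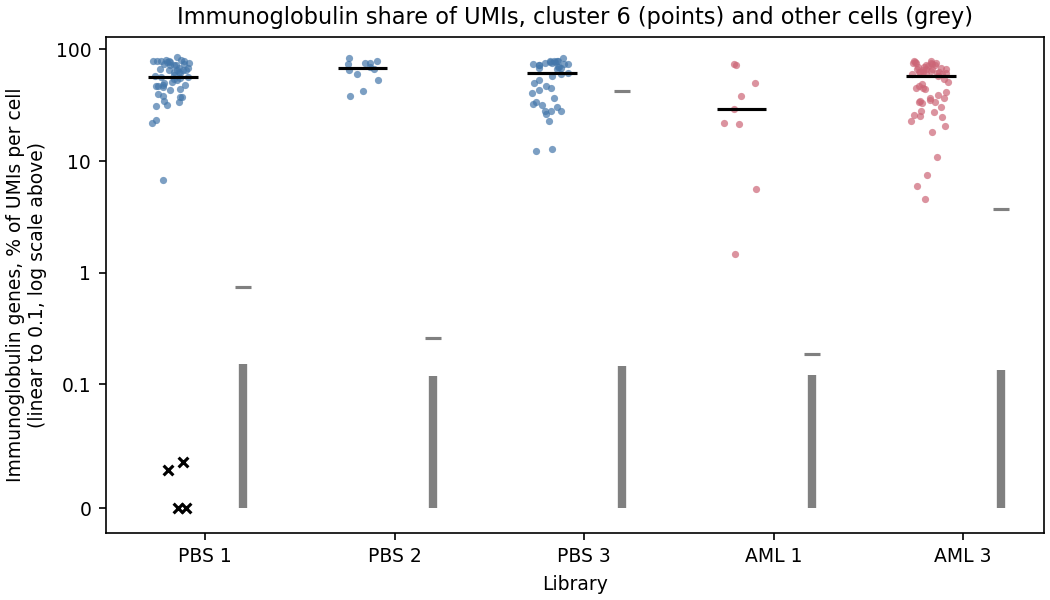
Percent of a cell's UMIs from immunoglobulin genes (y axis, linear to 0.1 and log scale above) for each cluster 6 cell (points, with black lines at the medians) and for the other cells (grey bars from the 1st to the 99th percentile, grey dashes at the highest cell) in the 5 libraries with cells in the table. Most points lie above 10%, and the 4 crosses near 0 in PBS 1 are the hemoglobin-rich cells.

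The heavy chain was nearly always IgM. Of the 177 cells, 170 were assigned Ighm, the IgM constant gene, at 80% or more of at least 5 heavy chain constant UMIs, with 52, 11, 39, 9 and 59 cells in PBS 1, PBS 2, PBS 3, AML 1 and AML 3. Only 3 cells were assigned Igha, the IgA constant gene, 1 in each PBS library, and the 4 hemoglobin-rich cells had no isotype. Those 3 IgA cells held 589, 1430 and 484 Igha UMIs and no Ighm UMI, and nearly all Igha UMIs of cluster 6 in these libraries (591, 1430 and 486). No cell was assigned an IgG gene. Kappa was the light chain of 166 cells and lambda of 4, and 2 of the 3 IgA cells were lambda cells.

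Part of these cells used 1 particular pair of variable (V) genes, and the germline sequences of the V genes that matter here are shown for that reason. A V gene was assigned where it held at least 80% of at least 2 V gene UMIs of its kind. The reference sequence is the coding V exon of the GRCm38 genome with the GENCODE annotation, 5′ to 3′ on the gene's own strand, and capitals mark bases that differ from the most similar other V gene of the reference. Ighv11-2 lies at chr12:114048241-114048540 on the minus strand and differs from Ighv11-1 at 4 of 300 bases, so that reads could be shared between the 2 genes. Igkv14-126 lies at chr6:67896345-67896642 on the plus strand and differs from Igkv14-111 at 27 of 298 bases. Ighv6-3 lies at chr12:114391712-114392011 on the minus strand and differs from Ighv6-6 at 22 bases, and Igkv5-39 lies at chr6:69900424-69900721 on the minus strand and differs from Igkv5-45 at 25.
Ighv11-2: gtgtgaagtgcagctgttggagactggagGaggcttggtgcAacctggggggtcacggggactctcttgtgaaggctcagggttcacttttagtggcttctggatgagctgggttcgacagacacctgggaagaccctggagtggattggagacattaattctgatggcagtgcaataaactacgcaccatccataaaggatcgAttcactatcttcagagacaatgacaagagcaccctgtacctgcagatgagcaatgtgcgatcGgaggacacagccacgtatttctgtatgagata
Igkv14-126: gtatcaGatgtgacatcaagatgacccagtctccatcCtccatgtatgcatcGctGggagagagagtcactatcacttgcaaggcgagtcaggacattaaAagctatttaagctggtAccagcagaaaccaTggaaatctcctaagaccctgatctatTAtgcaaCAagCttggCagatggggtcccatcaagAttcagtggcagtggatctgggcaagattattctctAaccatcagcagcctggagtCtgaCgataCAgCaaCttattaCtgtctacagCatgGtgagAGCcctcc
Ighv6-3: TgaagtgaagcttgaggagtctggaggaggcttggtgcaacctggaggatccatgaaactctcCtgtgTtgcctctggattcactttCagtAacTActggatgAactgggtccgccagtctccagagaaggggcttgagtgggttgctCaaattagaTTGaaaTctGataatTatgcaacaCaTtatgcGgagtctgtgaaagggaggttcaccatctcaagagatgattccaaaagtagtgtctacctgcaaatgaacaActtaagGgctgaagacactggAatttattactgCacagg
Igkv5-39: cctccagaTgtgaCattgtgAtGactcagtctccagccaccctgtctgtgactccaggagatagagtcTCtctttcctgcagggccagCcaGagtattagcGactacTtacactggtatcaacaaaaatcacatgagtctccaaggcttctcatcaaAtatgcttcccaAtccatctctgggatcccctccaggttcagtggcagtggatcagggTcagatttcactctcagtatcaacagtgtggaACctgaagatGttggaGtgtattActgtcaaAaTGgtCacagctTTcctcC

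A heavy V gene could be assigned in 106 cells, a kappa V gene in 135 and both in 89. Ighv11-2 with Igkv14-126 was the pair in 45 of the 89 cells (50.6%, exact 95% interval 39.8% to 61.3%, counting error only). This pairing is known from B-1a cells whose antibody binds phosphatidylcholine. It was found in every library: 4 of 26 paired cells in PBS 1, 4 of 8 in PBS 2, 12 of 17 in PBS 3, 5 of 5 in AML 1 and 20 of 33 in AML 3. No cell paired Ighv11-2 with another kappa V gene, and none paired Igkv14-126 with another heavy V gene. The single immunoglobulin-rich cell of another cluster in PBS 3 carried the same pair.

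The second pair was of another kind. Ighv6-3 with Igkv5-39 was found in 15 cells, all in PBS 1, where they made up 57.7% of the paired cells (exact 95% interval 36.9% to 76.6%). In all, 23 pairs were seen, of which 15 occurred in 1 cell each, 2 in more than 1 library and only the Ighv11-2 pair in all 5. The counts of 45 and 89 were the same without the shared and hemoglobin-rich cells and became 44 and 84 without all 17 doubtful cells. UMIs give the V gene and not the junction, so that cells of 1 pair may or may not be 1 clone.

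**Figure D2:**
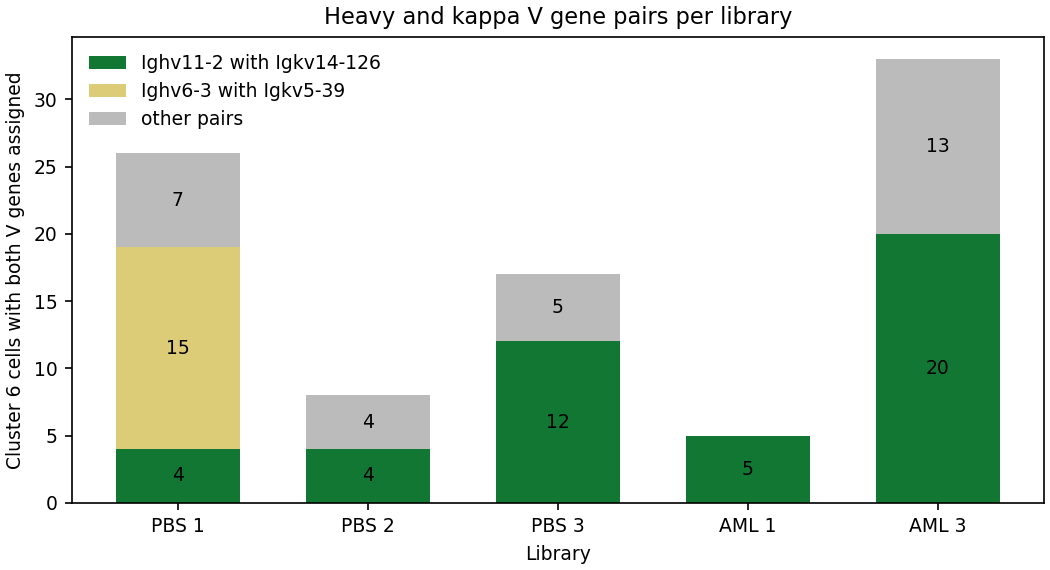
Number of cluster 6 cells with both V genes assigned (y axis) in each library (x axis), split into the Ighv11-2 and Igkv14-126 pair, the Ighv6-3 and Igkv5-39 pair and all other pairs. The first pair is present in all 5 libraries and the second in PBS 1 alone, with 15 cells.

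Cells with Igkv14-126 held more immunoglobulin RNA than the kappa cells with another V gene assigned in 4 of 5 libraries. The median immunoglobulin share was 76.9%, 75.5%, 75.5%, 38.4% and 67.8% in Igkv14-126 cells of PBS 1, PBS 2, PBS 3, AML 1 and AML 3. It was 51.3%, 53.0%, 35.2%, 39.8% and 40.7% in the others. The groups held 9, 4, 14, 5 and 23 cells against 33, 5, 16, 2 and 24, so that AML 1, the exception, sets 5 cells against 2. The mean difference was 22.8 percentage points ± 15.2 (SD, n = 5 libraries), with an exact two-sided permutation p of 0.125 over sign changes, where 0.0625 is the smallest possible. Kappa cells with no V gene assigned (8, 1, 8, 0 and 11 cells) are left out of this comparison and had medians of 70.9%, 78.9%, 55.9% and 33.7% in the 4 libraries that hold any. With them among the others the mean difference was 20.5 points ± 13.3, with the same direction in 4 of 5 libraries and an exact permutation p of 0.125.

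Few genes outside the immunoglobulin genes passed the test between these 2 kinds of cell. Of 818 genes tested in the 4 libraries with at least 4 cells of each kind (edgeR, library as a block), 1 was higher and 1 lower in Igkv14-126 cells (0.122% each). Ly6k, a small surface protein gene of the Ly6 family, was lower by log2 -2.07 (adjusted p = 2.63e-05), with 6, 0, 5 and 16 UMIs in Igkv14-126 cells against 49, 45, 24 and 94 in the others of PBS 1, PBS 2, PBS 3 and AML 3. Gm30211 was higher (log2 1.02, adjusted p = 0.000559). Gm30211 is a lincRNA gene at chr6:70719074-70740554 that contains the Igkc gene (chr6:70726435-70726966) on the same strand, and reads of the 2 could not be told apart. DESeq2 and edgeR without the block called neither gene, with 10 and 13 genes at an unadjusted p under 0.05. The comparison was added after the V genes were seen, and with as few as 4 cells of a kind in a library so few calls do not show that differences are small.

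Against the other cells of the same library, cluster 6 showed the transcripts of antibody-secreting cells at high level. Since the cells were clustered on these same genes, the contrast is a description and no test was made. Levels are CPM, counts scaled to 1000000 UMIs outside immunoglobulin genes, and a gene is called higher where its ratio was at least 2-fold in each of the 4 libraries with at least 10 cells (AML 1 has 9), with at least 3 UMIs in cluster 6 in each. By this rule 343 of 15184 genes were higher (2.26%) and 690 lower (4.54%), and without the 17 doubtful cells 372 and 1014. The counts fell to 123 and 144 with AML 1 added to the 4 libraries, and to 114 and 223 with cells thinned to 1000 UMIs. AML 1, with 19793 UMIs outside immunoglobulin genes in its 9 cells, gives 50.5 CPM for a single UMI. The rule without the 3 UMIs gave 2926 (19.3%), of which 1631 had no UMI at all in cluster 6 of those libraries, because 0.5 UMI was added to each count. The median log2 ratio of all genes was 0.05. With all UMIs as the total, immunoglobulin genes included, the median gene stood at -1.25, and 144 genes were higher and 5305 lower, so that the directions below hold relative to the RNA outside immunoglobulin genes.

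Of 17 plasma cell genes tested, 16 were higher and none lower (median log2 ratio 7.31), and the summed level of the list was 70176 to 180527 CPM against 146 to 208 in other cells. Most of that sum was Jchain, itself a marker of the label, at 125756, 165300, 101030, 63760 and 73640 CPM. Mzb1, an ER chaperone of B lineage cells, stood at 5009, 7139 and 9288 CPM in PBS 1 to 3, 3183 in AML 1 and 5491 in AML 3, against 2.07 to 3.74 in other cells. Xbp1, the transcription factor that drives the secretory program, stood at 2282, 2577, 1339, 455 and 1367 CPM in the same order, against 28.5 to 47.7. Every library of cluster 6 lay above every library of the other cells for both genes. The share of all genes of which this holds is not given here. Irf4, a transcription factor needed for plasma cells, stood at 188, 136, 234, 50.5 and 239 CPM, and at most at 0.630 in other cells.

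Surface markers of plasma cells were high as well. Tnfrsf17, the receptor BCMA for the survival factor APRIL, stood at 380, 456, 385, 253 and 363 CPM, against at most 0.556 elsewhere. Sdc1, which encodes the plasma cell marker CD138, stood at 137, 173, 94.8, 101 and 96.1 CPM against 4.63 to 7.34, and had a UMI in 21, 8, 13, 2 and 19 cells. Slamf7, a surface receptor of plasma and NK cells, stood at 281 to 407 CPM and at most at 1.04 elsewhere. The only gene of the list with under 3 UMIs in one of the 4 libraries used for calling, and so not called, was Prdm1, which encodes the plasma cell regulator Blimp-1, at 41.2, 0, 44.6, 0 and 85.5 CPM. It was detected in 7, 0, 5, 0 and 15 cells, and its level in PBS 2 and AML 1 was not detectable at this depth.

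B cell genes were split. Of 14 tested, 5 were higher and none lower (median 2.06), and the list summed to 8387 to 23106 CPM against 310 to 801 in other cells. The 5 were Cd79a and Cd79b, the signaling chains of the B cell receptor, Ms4a1, which encodes CD20, Cd74, the invariant chain of class II MHC, and Ly6d, a marker of B lymphoid cells. Cd79a stood at 1031, 1060, 848, 606 and 840 CPM, against at most 0.601 elsewhere, and Ms4a1 at 59.6, 61.6, 94.8, 50.5 and 42.7, against at most 0.408. Pax5, the B cell identity factor, had no UMI in cluster 6 in any library, and neither did Cd22, an inhibitory receptor of B cells. Both genes stood at most at 0.524 CPM in other cells.

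**Figure D3:**
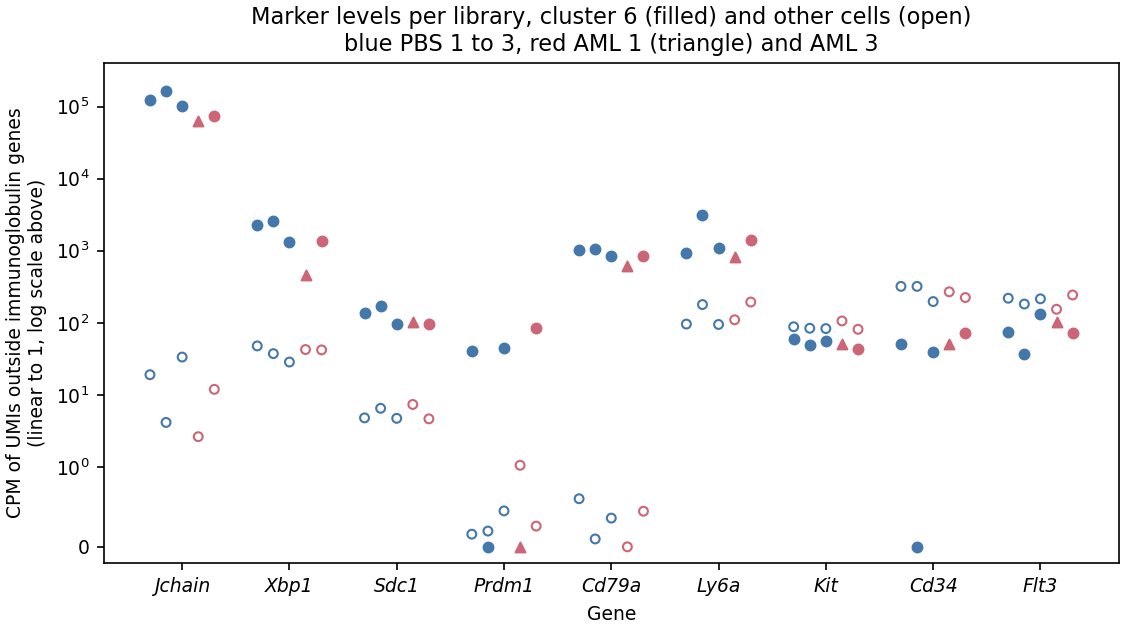
CPM of the UMIs outside immunoglobulin genes (y axis, linear to 1 and log scale above) for 9 marker genes in cluster 6 (filled) and other cells (open) of each library, with PBS 1 to 3 in blue, AML in red and AML 1 as a triangle where filled. Jchain, Xbp1, Sdc1, Cd79a and Ly6a were higher in cluster 6 in all 5 libraries, and Kit, Cd34 and Flt3 were lower in all 5.

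Markers of other cell types gave a different picture. Of 8 early B cell genes tested none was higher, and Dntt, the enzyme that adds bases to V gene junctions, was lower (4, 0, 2, 1 and 23 UMIs, or at most 81.9 CPM, against 130 to 287). Rag1, Vpreb1 and Igll1 had no UMI. Of 11 T and NK cell genes none was higher or lower, and the list summed to 37.0 to 153 CPM against 187 to 220. Of 10 genes of plasmacytoid dendritic cells, 2 were higher (Cox6a2 and Cybb) and Runx2 was lower, while Siglech, the defining surface receptor, had no UMI. Of 13 neutrophil and monocyte genes, Ly6c2 was higher and Prtn3 and Lyz2 were lower, and the list summed to 354 to 1186 CPM against 926 to 1937. Of 10 erythroid genes, Car1 and Car2 were lower and none was higher, and the list, with 4 hemoglobin genes in it, summed to 44920, 86.3, 89.3, 556 and 1830 CPM in PBS 1, PBS 2, PBS 3, AML 1 and AML 3 against 964, 838, 954, 300 and 623. The 4 hemoglobin-rich cells are in PBS 1. In AML 3, 1 cluster 6 cell of 8251 UMIs held 5.975% hemoglobin, and its other cluster 6 cells held at most 0.018%. Without the 17 doubtful cells, 16 plasma cell genes and 5 B cell genes were higher, Dntt was no longer called lower, and 5 neutrophil and monocyte and 3 erythroid genes were lower.

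The sort antigens themselves were measured too. Ly6a, which encodes Sca1, stood at 926, 3156, 1077, 808 and 1389 CPM in cluster 6 against 95.9, 179, 94.7, 110 and 194 in other cells of the same library, with a median ratio of 10.5-fold. Kit, which encodes cKit, stood at 59.6, 49.3, 55.8, 50.5 and 42.7 CPM against 81.1 to 106, below the other cells in all 5 libraries and by less than 2-fold in the 4 libraries with at least 10 cells. Ptprc, which encodes CD45, stood at 64.2, 74.0, 66.9, 202 and 71.2 CPM against 70.0 to 92.1. Of a list of antigens that are common targets of lineage depletion (the labels name a depletion kit but not its antibodies), Cd5, Ly6g, Cd8a and Cd4 had no UMI in cluster 6, and 1 of 8 genes tested was higher, Ly6c2 (321, 432, 240, 0 and 239 CPM against 2.36 to 19.2). The sort and the lineage depletion bear on how many such cells are collected, and the shares of cells given here hold for sorted cells only.

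Of 18 stem and progenitor genes tested, 9 were lower and 1, Ly6a, was higher (median -1.96). Cd34 stood at 50.4, 0, 39.1, 50.5 and 71.2 CPM against 197 to 320. Also among the lower genes were the transcription factor genes Hlf, Mecom, Meis1, Hoxa9, Lmo2 and Myb, and Adgrg1, an adhesion receptor of stem cells. Flt3, a receptor of multipotent progenitors, was not called, at 73.3, 37.0, 134, 101 and 71.2 CPM against 154 to 243. Without the 17 doubtful cells 11 of the 18 were lower, but 10 of those cells were chosen for their progenitor UMIs, so that their removal lowers these genes by construction. The authors' class column nonetheless gave 172 of the 177 cells the class MPP3 (a multipotent progenitor class), 4 HSC and 1 MPP2, so that cluster 6 made up 7.26% of the 2369 MPP3 cells and held 12.5%, 40.1%, 16.8%, 5.73% and 8.05% of their UMIs in PBS 1, PBS 2, PBS 3, AML 1 and AML 3.

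Genes of the secretory program were among the higher genes, more of them at some steps of the pathway than at others. Over the 6 lists of the program 56 of 143 genes tested were higher and none was lower, beside 2.26% and 4.54% of all genes tested. The genes of the 6 lists together took 41631 to 63422 CPM against 12915 to 17726. At the entry to the ER, 10 of 24 genes of the translocon and signal peptidase were higher (median 1.18). The signal peptidase genes Spcs1, Spcs2 and Sec11c stood at 2048 to 3381, 2026 to 2466 and 859 to 2749 CPM, against 278 to 738, 352 to 519 and 260 to 329. The ranges of cluster 6 and of other cells did not overlap for any of them. The share of all genes without such overlap is not given here. Ssr4, a subunit of the translocon-associated complex, stood at 1516 to 4414 CPM against 415 to 620.

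Among folding factors 19 of 29 genes were higher (median 2.06). Hspa5, the Hsp70 chaperone BiP that binds unassembled heavy chains, stood at 458, 271, 374, 253 and 470 CPM against 112, 101, 59.3, 121 and 112, with a median ratio of 4.17-fold. Hsp90b1, the ER Hsp90 chaperone, stood at 2342, 1689, 2192, 1667 and 1994 CPM against 160 to 386, with a median ratio of 8.63-fold. Txndc5, a disulfide isomerase, stood at 556 to 1196 CPM against 16.7 to 31.6, and Creld2, an ER stress-induced factor, at 354 to 893 against 24.9 to 46.5. Manf, Sdf2l1, Pdia4, Pdia6, P4hb, Dnajb11, Dnajc3, Fkbp2, Fkbp11, Ero1lb, Prdx4, Erp44, Cnpy2 and Txndc11 were also higher.

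Disposal of misfolded chains from the ER was the list with the highest median of the 6, 2.38, with 11 of 18 genes higher. Herpud1, a scaffold of the ubiquitin ligase of the ER, stood at 1237, 1196, 775, 253 and 2347 CPM against 43.5 to 85.1, with a median ratio of 16.7-fold. Edem1, which trims sugars of misfolded glycoproteins, stood at 229, 247, 100, 404 and 231 CPM against 7.14 to 22.5. Sel1l, the partner of the ligase Syvn1, stood at 271 to 608 CPM against 21.5 to 37.4, and Derl3, a channel component induced under ER load, at 50.5 to 358 against at most 1.28.

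N-glycosylation and transport to the Golgi had fewer called genes, where 2.26% of all genes tested were called higher. Of 25 N-glycosylation genes 5 were higher (Dad1, Krtcap2, Magt1, Alg5 and Gmppb, median of the list 0.85), and of 33 transport genes 6 (Sar1a, Lman2, Surf4, Tmed10, Cope and Golgb1, median 0.99). Tmed10, a cargo receptor of transport vesicles, stood at 651, 900, 563, 505 and 609 CPM against 179 to 230. With all UMIs as the total, the medians of the translocon, N-glycosylation and transport lists turned negative (-0.15, -0.47 and -0.35), and those of the folding and disposal lists were 0.88 and 1.11. On that scale 9 folding and 9 disposal genes, 4 of the translocon and 2 regulators of the unfolded protein response were higher, no N-glycosylation or transport gene was, and 2, 1, 0, 1, 4 and 1 genes of these 6 lists were lower. Without the 17 doubtful cells the counts were 8 of 25 and 7 of 33, and 12 of 24 for the translocon list, while the folding and disposal counts stayed at 19 and 11.

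Among 14 regulators of the unfolded protein response, the ER's adaptive program, 5 were higher and none lower (median 1.10). Beside Xbp1 these were Atf6, an ER stress sensor (96.2, 185, 134, 303 and 207 CPM against 19.2 to 42.5), Eif2ak3, which encodes the sensor PERK, Creb3l2 and Ppp1r15a. Ern1, the sensor that splices Xbp1 mRNA, was not called, at 96.2, 61.6, 112, 50.5 and 214 CPM against 70.0 to 122. Ddit3, the stress-induced factor CHOP, stood at 9.17, 24.7, 22.3, 0 and 24.9 CPM against 3.67 to 13.6 and was not called. Atf3 and Trib3, also stress-induced, had 2 UMIs each over all of cluster 6. The list median was -0.23 with all UMIs as the total.

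The promoters of several of these genes hold the ER stress response element, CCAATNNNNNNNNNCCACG on either strand (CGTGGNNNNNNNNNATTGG as its reverse complement), in the 250 bases before the start of the gene. It was found in 33 of 27025 RefSeq promoters (0.122%), 7 of 269 promoters of genes called higher (2.60%) and 10 of 118 promoters of the secretory lists (8.47%). The 7 higher genes with a match were Creld2, Derl3, Dnajc3, Hsp90b1, Hspa5, Pdia6 and Syvn1, all 7 of the secretory lists. A match describes the letters of the reference and not a bound site. The windows of Hspa5, Hsp90b1 and Derl3 are shown because these genes are described above, from RefSeq on GRCm38.p6, 5′ to 3′ on the gene's strand with the motif in capitals. They lie at chr2:34771840-34772089 (plus strand), chr10:86705445-86705694 (minus strand, 2 matches) and chr10:75893148-75893397 (plus strand).
Hspa5: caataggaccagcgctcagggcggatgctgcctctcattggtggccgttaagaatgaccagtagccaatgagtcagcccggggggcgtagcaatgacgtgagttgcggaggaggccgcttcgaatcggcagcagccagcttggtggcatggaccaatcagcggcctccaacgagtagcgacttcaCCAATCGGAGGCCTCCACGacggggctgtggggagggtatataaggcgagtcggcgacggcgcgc
Hsp90b1: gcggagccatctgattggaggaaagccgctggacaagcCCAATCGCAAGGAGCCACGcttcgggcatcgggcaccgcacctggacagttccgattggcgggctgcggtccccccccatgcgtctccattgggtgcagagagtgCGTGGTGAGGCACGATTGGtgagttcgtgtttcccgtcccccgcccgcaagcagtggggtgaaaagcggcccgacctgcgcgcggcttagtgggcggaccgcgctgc
Derl3: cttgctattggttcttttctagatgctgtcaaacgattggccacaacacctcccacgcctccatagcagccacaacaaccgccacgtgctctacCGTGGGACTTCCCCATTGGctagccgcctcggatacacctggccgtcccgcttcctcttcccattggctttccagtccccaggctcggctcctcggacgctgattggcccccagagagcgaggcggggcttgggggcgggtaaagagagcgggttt

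**Figure D4:**
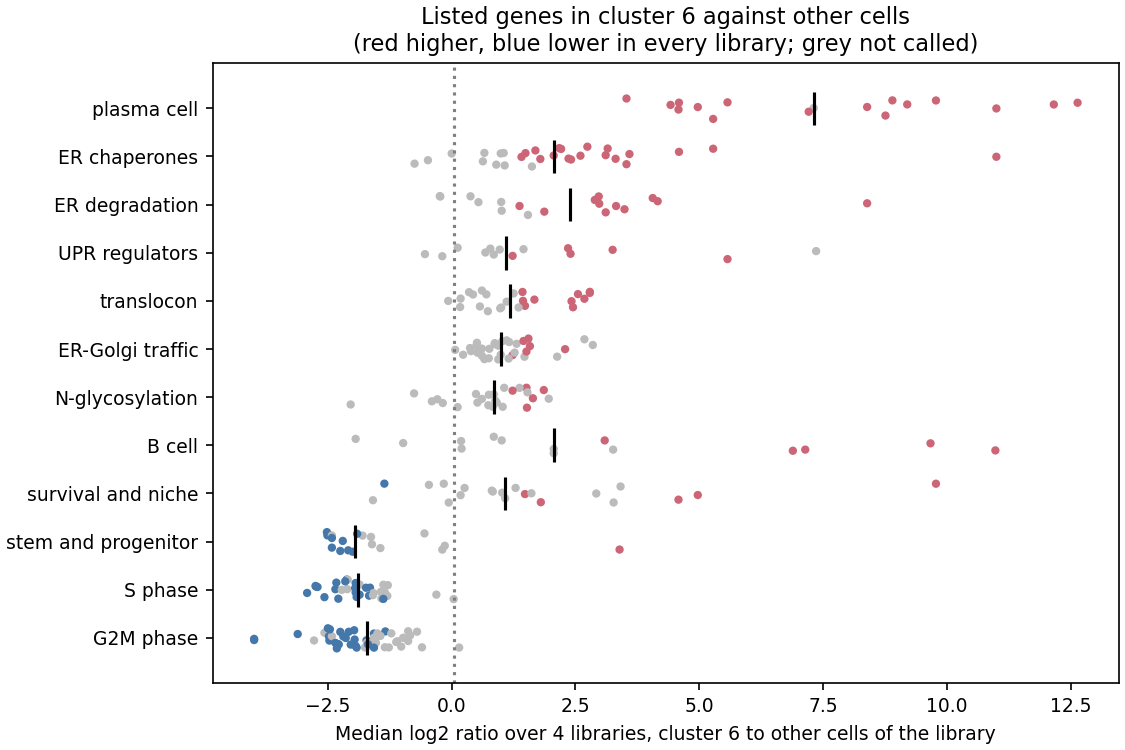
Median log2 ratio of cluster 6 to other cells over 4 libraries (x axis) for each tested gene of 12 lists (y axis), with red points higher (at least 3 UMIs in each) and blue points lower in every library, grey points not called, black bars at the list medians and the dotted line at the median of all genes (0.05). The plasma cell list stands farthest to the right with a median of 7.31, and the stem and progenitor, S phase and G2M lists stand left of the line with 9, 19 and 25 genes lower.

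Few of the cells were in cycle by the authors' phase column. It placed 162 of the 177 cells in G1, 5 in S and 10 in G2M, so that 8.47% were in S or G2M against 47.4% of other cells. Per library the share was 8.77%, 8.33%, 5.0%, 33.3% and 6.78%, against 43.7%, 42.2%, 44.5%, 86.0% and 51.7%. The share was lower in cluster 6 in all 5 libraries. The phase call rests on transcript levels, and here both lists of cycle genes were lower too: 19 of 34 S phase genes (median -1.89) and 25 of 50 G2M genes (median -1.72), with none higher. The G2M list summed to 506 to 2880 CPM against 4394 to 6241. Among the lower genes were Top2a, the DNA topoisomerase of dividing cells, and Cdk1, the kinase that starts mitosis. Without the 17 doubtful cells 23 and 34 genes were lower.

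Receptors and adhesion molecules for survival in the marrow niche were mixed. Of 21 tested, 5 were higher (Tnfrsf17, Tnfrsf13b, Cd28, Sdc1 and Mcl1) and 1, the integrin chain Itgb1, was lower (median 1.08, and -0.16 with all UMIs as the total). Mcl1, a survival factor of the Bcl-2 family on which plasma cells depend, stood at 280, 358, 156, 152 and 285 CPM against 49.8 to 126. Tnfrsf13b, the receptor TACI, stood at 147, 234, 106, 253 and 128 CPM against 35.2 to 43.7. Cxcr4, the receptor that keeps plasma cells in the marrow, was not called, at 101, 74.0, 55.8, 101 and 21.4 CPM against 32 to 154. Klf2, a factor of lymphocyte trafficking, was higher in PBS 1 to 3 (280, 136 and 100 CPM against 93.9, 31.4 and 33.3) and in AML 1 (152 against 65.5), and stood at 35.6 against 45.7 in AML 3.

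Beyond the lists, 3 of the 15 genes with the highest median ratio are described by their known roles. Il5ra, the interleukin 5 receptor chain carried by B-1 cells, stood at 261, 197, 123, 354 and 196 CPM against at most 0.333. Bhlhe41, a transcription factor needed for B-1a cells, stood at 73.3, 160, 117, 152 and 107 CPM against at most 0.190. Prg2, known as an eosinophil granule protein and also made by plasma cells, stood at 4784, 2675, 3403, 2324 and 2542 CPM against at most 7.28. All 3 genes had UMIs in cluster 6 in each of the 5 libraries, while Cd5, a surface marker of B-1a cells, had none.

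The others of the 15 were the genes of voltage-gated calcium channels, Cacna1s, Cacna1h and Cacna1e, the ligand genes Bmp6 and Wnt10a, the sulfotransferase gene Chst1, Hepacam2, the costimulatory receptor gene Cd40, Gm30211, Gm48370, 4933404K13Rik and 2010309G21Rik. Of these, Cacna1h, Bmp6, Cd40 and Gm48370 had under 3 UMIs in at least 1 of the 4 libraries. Cacna1s stood at 119, 197, 94.8, 50.5 and 157 CPM against at most 0.111. The gene 2010309G21Rik is annotated as antisense across the lambda locus at chr16:19051367-19106749, which includes Iglc1. Neither the labels nor the main text say if counting used strand, so that reads of 2010309G21Rik may be immunoglobulin reads. Gm30211 shares the strand of Igkc, so that strand would not tell its reads from those of Igkc. Among the 10 genes with the lowest ratios were Tmem40, Pf4, Tsc22d1, Rgs18, Apoe, Gp9, 1500009L16Rik, Tespa1 and Bex6. Of these, Pf4, a platelet chemokine, had 1, 0, 3, 0 and 0 UMIs in cluster 6 and stood at 82.9 to 124 CPM in other cells.

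The ribosomal and mitochondrial shares of the RNA also moved with cluster 6. Ribosomal protein genes made up 5.63%, 6.02%, 7.32%, 17.9% and 9.34% of UMIs in the cells of PBS 1, PBS 2, PBS 3, AML 1 and AML 3 (medians), against 27.3% to 34.4% in other cells. Mitochondrial transcripts made up 0.318% to 0.425% against 0.652% to 1.23%. Both are shares of all UMIs, which a larger immunoglobulin share lowers. How much of each difference this accounts for was not tested, nor was the part of the 2 shares in the ratios above.

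Leukemia was compared with PBS over libraries, since cells of 1 library are not replicates. The share of cells in cluster 6 was 0.834% (exact 95% interval 0.632% to 1.08%), 1.28% (0.666% to 2.23%) and 0.909% (0.650% to 1.24%) in PBS 1 to 3. It was 1.30% (0.596% to 2.45%) in AML 1 and 1.49% (1.14% to 1.92%) in AML 3. The AML libraries stood above the PBS ones, AML 1 only just, with means of 1.394 ± 0.135 (SD, n = 2) and 1.009 ± 0.242 (n = 3) percent. The exact two-sided permutation p was 0.200, where 0.10 is the smallest possible. Counted over all barcodes of all 6 libraries with at least 500 UMIs outside immunoglobulin genes, the share with at least 10% immunoglobulin was lower in AML by 0.110 percentage points (exact permutation p = 0.700). Over such barcodes of the 5 libraries with cells in the table it was higher in AML by 0.0422 points (exact permutation p = 0.800), so that the direction turns where AML 2 enters. AML 2 enters at 0.302%, and 10 of its 13 immunoglobulin-rich barcodes held more UMIs in PBS 2 or PBS 3.

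The immunoglobulin share of the summed UMIs was lower in both AML libraries than in all 3 PBS libraries, but the median over cells was not, at 58.0% in AML 3 and 57.2% in PBS 1. The means over summed UMIs were 50.8% ± 4.35 (n = 2) and 61.3% ± 3.93 (n = 3), with an exact two-sided permutation p of 0.10, the smallest that 3 against 2 libraries allow. AML 1 enters with 9 cells. The share of cells in S or G2M was 20.1% ± 18.8 in AML and 7.37% ± 2.06 in PBS (exact permutation p = 0.300), and 33.3% in AML 1 stands for 3 of 9 cells.

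Gene levels of cluster 6 were tested between AML and PBS with AML 1 included, so that each group had more than 1 library. With at least 5 cells per library, edgeR called 0 of 2695 genes higher in AML (0%) and 1 lower (0.0371%), with 129 genes at an unadjusted p under 0.05, and DESeq2 called 0 higher and 1 lower. Without the 17 doubtful cells edgeR called 0 and 1 as well, and without AML 1, where AML 3 is the lone AML library and is assumed to vary like the PBS ones, 1 and 1. The 1 gene was Igha (log2 -9.09, adjusted p = 4.81e-05), with 591, 1430 and 486 UMIs in PBS 1 to 3 and 0 and 5 in AML 1 and AML 3. It rests on the 3 IgA cells, 1 in each PBS library, and 2 barcodes of AML 1 outside the table of cells were also assigned Igha. The next genes by p were Ms4a6c (2, 0, 0, 1 and 21 UMIs), Plac8 (44, 2, 31, 11 and 182 UMIs) and Mpo (3, 0, 5, 3 and 29 UMIs), with adjusted p of 0.625, 0.625 and 0.776 by edgeR.

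With at least 10 cells per library AML 3 was the only AML library, and its values are given with no p. Of 3951 genes 127 stood at least 2-fold above all 3 PBS libraries (3.21%) and 17 at least 2-fold below (0.430%), with the median gene at 0.51 on the log2 scale above the PBS mean. These levels are scaled to all UMIs outside V genes, constant genes included, and with all immunoglobulin genes left out the counts were 62 and 26. Of 14 neutrophil and monocyte genes, 5 had at least 20 UMIs over PBS 1 to 3 and AML 3, and 4 of the 5 stood above. Among them were Mpo (3, 0, 5 and 29 UMIs in PBS 1 to 3 and AML 3), Elane (1, 0, 0 and 23) and Ctsg (1, 0, 0 and 35). Mpo, Elane and Ctsg reached 20 UMIs only through AML 3, so that the count of 4 is not read as a result. The UMIs of AML 3 came from 8 cells for Mpo, 4 for Elane and 2 for Ctsg, of 59. AML 1 had 3 UMIs of Mpo (79.6 CPM) and 0 of Elane and Ctsg. Prtn3 stood at 93.0, 4.26 and 97.4 CPM in PBS 1 to 3, 79.6 in AML 1 and 286 in AML 3. Without the 17 doubtful cells 126 genes stood above and 12 below. Isg15, an interferon-induced gene, had 13, 0 and 25 UMIs in PBS 1 to 3 and 83 in AML 3, and stood above as well, while AML 1 (2 UMIs, 53.0 CPM) lay under PBS 3 (55.3 CPM). No gene of the folding, translocon, glycosylation and transport lists stood above or below. Herpud1 of the disposal list (523, 413 and 308 CPM on this scale in PBS 1 to 3 and 1085 in AML 3), Ern1 of the unfolded protein response (40.7, 21.3, 44.3 and 98.8) and Prdm1 of the plasma cell list (17.4, 0, 17.7 and 39.5) stood above, but none of these 3 was called with immunoglobulin genes left out. AML 1 did not share these levels, at 133 CPM for Herpud1, 26.5 for Ern1 and 0 for Prdm1 (5, 1 and 0 UMIs). Klf2 and Cxcr4 of the survival list stood below, also with immunoglobulin genes left out, at 16.5 and 9.88 CPM in AML 3. In AML 1 Klf2 stood at 79.6 CPM (3 UMIs), within the PBS range of 39.8 to 118, and Cxcr4 at 53.0 (2 UMIs), above the PBS range of 22.1 to 42.6. Mpo and Elane were also expressed in the other cells of AML 3, at 195 and 155 CPM, and the part of RNA from other cells in these values was not tested.

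Immunoglobulin-rich barcodes also lay outside the table of cells. Among barcodes outside it with at least 500 UMIs outside immunoglobulin genes, 33 of 7347 in AML 1 (0.449%) and 13 of 4311 in AML 2 (0.302%) held at least 10% immunoglobulin UMIs, against 0 of 2746, 0 of 322 and 1 of 1824 in PBS 1 to 3 and 1 of 1620 in AML 3. All 33 of AML 1 held most of their UMIs there, but 10 of the 13 of AML 2 held more in PBS 2 or PBS 3. In AML 1 and AML 2 together (edgeR, library as a block) 47 of 9326 genes were higher than in the other barcodes outside the table (0.504%) and 268 lower (2.87%). This fit has 4 sums, and most of the AML 2 barcodes in it repeat cells of PBS 2 and PBS 3 at low depth. With the 33 and 3 barcodes that held most of their UMIs in AML 1 and AML 2, edgeR called 5 genes higher and 0 lower, with 174 at an unadjusted p under 0.05. No gene of this fit is therefore given by its p.

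AML 1 alone, whose 33 barcodes are its own, was examined by size with no test. Jchain stood at 48460 CPM in them against 24.1 in the other barcodes outside the table, Mzb1 at 3251 against 5.23, Xbp1 at 1796 against 32.5 and Prg2 at 1967 against 2.36. Ly6a, which encodes Sca1, stood at 898 CPM (21 UMIs) against 102. Of 11237 genes 461 were at least 2-fold higher with at least 3 UMIs (4.10%) and 1217 at least 2-fold lower (10.8%). All 9 plasma cell genes tested there were higher, 18 of 29 folding genes, 11 of 17 disposal genes and 11 of 24 translocon genes, with 1 translocon gene lower, and 19 of 34 S phase and 23 of 50 G2M genes were lower. Of the genes called higher in cluster 6, 287 were tested in these barcodes and 145 were at least 2-fold higher with at least 3 UMIs. In the 19 of them with a kappa V gene assigned, 10 carried Igkv14-126, and 3 of 3 with both V genes assigned carried the Ighv11-2 pair.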

How the data were processed

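Droplet RNA libraries (10x) of sorted LSK cells were measured in 3 PBS and 3 AML samples. The authors deposited raw UMI counts per gene and barcode, made with Cell Ranger 7.0.1 on GRCm38 per the labels' processing notes, which also name R 4.2.2 and Seurat 4.3.0, and a table of cells with cluster, class and phase. Deposited columns of that table also hold percent values (mitochondrial and ribosomal shares) and module scores of the authors, and 11 of its columns were not used. Cell filters, doublet handling, integration and strand of counting are not stated by the labels or the paper's main text, and its expanded methods were not used here. AML 2 has no cell in the table.

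Cells were joined to the matrices by library and barcode, and 392 immunoglobulin genes (379 of them variable) were kept apart. Counts were summed per library. Ratios to other cells used counts outside immunoglobulin genes with 0.5 UMI added, genes with at least 20 UMIs and libraries with at least 10 cells. The planned AML test had 1 AML library of that size, so that edgeR ran with at least 5 cells. Counts were tested with edgeR 4.0.16 (quasi-likelihood, filterByExpr, TMM, Benjamini-Hochberg adjusted p under 0.05, R 4.3.3) or DESeq2 1.42.0, and library values with exact permutation tests (scipy 1.17.1). Immunoglobulin-rich barcodes had at least 500 UMIs outside immunoglobulin genes and at least 10% immunoglobulin UMIs. Intervals are 95% Clopper-Pearson and cover counting error only. Tools were Python 3.11.15, numpy 2.4.6, pandas 2.3.3 and Biopython 1.88, and scripts were tested on simulated data.

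The members, the 19 lists (391 genes) and the rules were chosen with earlier results of these data known. Named genes are the 4 markers, list members, the 15 highest and 10 lowest unlisted genes by median ratio, up to 10 calls in each direction between AML and PBS, and the 10 unlisted genes with the lowest p among outside barcodes, of which those that bear on the text are given. Some genes of these rules are not reported here. The rule of 3 UMIs, the V gene analysis, the comparison of kappa cells, the edgeR fit with at least 5 cells, AML 1 alone, the left-out cells, the kappa cells without a V gene and the counts of barcodes in their own or in the 5 libraries were chosen after seeing the data. Alternatives were other scalings, filters, tools, minimum counts, blocks and each library left out. The replicate numbers were not used as pairs.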

Additional observations from a re-analysis of the deposited data

Results flagged for a closer look

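In AML 2, from which no cell is in the table, 13 of 4311 barcodes with at least 500 UMIs outside immunoglobulin genes were immunoglobulin-rich (0.302%, exact 95% interval 0.161% to 0.515%). This is a signal in a library that the comparisons of cells do not use. Of the 13 barcodes, 10 held more UMIs in PBS 2 or PBS 3, and 3 held most of theirs in AML 2.

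In AML 1, 33 of 7347 such barcodes outside the table of cells were immunoglobulin-rich (0.449%, exact 95% interval 0.309% to 0.630%), against 9 cells of cluster 6 in the table, and all 33 held most of their UMIs in AML 1. The same count outside the table was 0 of 2746 in PBS 1, 0 of 322 in PBS 2, 1 of 1824 in PBS 3 and 1 of 1620 in AML 3. The median barcode of the 33 held 672 UMIs outside immunoglobulin genes, and the median cluster 6 cell of AML 1 held 2187.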

How the results depend on the processing

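The higher share of cluster 6 cells in AML (0.385 percentage points) turned to -0.110 over barcodes of all 6 libraries and to -0.184 with shared barcodes counted where they held most UMIs, was 0.0422 over barcodes of the 5 libraries in the table and 0.600 (exact permutation p = 0.10) over cells up to the 95th percentile of UMIs, and lay between 0.289 and 0.523 with 1 library left out. The immunoglobulin share difference of -7.41 percentage points (AML 3 minus PBS) was -4.11 for medians over cells, -10.5 with at least 5 cells, and -9.15 to -5.28 with 1 PBS library left out. The S or G2M difference of -0.589 percentage points became 12.7 with at least 5 cells per library, where AML 1 enters, and lay between -1.77 (without PBS 3) and 0.113 (without PBS 1). AML 3 stood 2-fold above PBS in 127 genes and below in 17, which became 75 and 1 with at least 5 cells, 559 and 417 with no filter, 62 and 26 without immunoglobulin genes, and 167 to 299 and 10 to 20 with 1 PBS library left out (299 and 10 without PBS 1). The edgeR counts of 0 higher and 1 lower became 1 and 5 with no filter, 1 higher without the 7 hemoglobin-rich and shared cells, and 0 to 1 and 0 to 5 with 1 library left out (0 lower without AML 3, 5 without PBS 2).

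The labels do not say that a replicate number marks paired samples, and the numbers were not used as pairs. The correlation of deviations was -0.13 for PBS 1 with AML 1 and -0.31 for PBS 3 with AML 3 (892 genes), but with 2 AML libraries their deviations mirror each other and replicate 2 has no AML cell, so that this check says little. With the replicate block edgeR called 2 genes higher and 1 lower, and the share difference was 0.523.

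Against other cells, 2926 higher genes became 1073 with all UMIs as the total, 9226 with no minimum and 569 with a minimum of 100 UMIs. The 690 lower genes became 5305 with all UMIs, 441 with 1 UMI added, 223 with cells thinned to 1000 UMIs and 144 with AML 1 added, and the 343 became 144, 114 and 123 with all UMIs, thinning and AML 1. With 1 library left out they were 3007 to 3446, 898 to 1034 and 383 to 453. Among outside barcodes the 47 higher genes became 90 with DESeq2, and the 268 lower became 131 with DESeq2, 111 at 20% immunoglobulin and 12 without the library block, and both became 5 and 0 with barcodes counted where they had most UMIs. The kappa comparison gave 0 and 0 with DESeq2 and without the block, and 1 to 2 higher and 1 to 3 lower with 1 library left out (2 and 3 without PBS 2). The cause of these changes was not tested.

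A minimum of 1000 UMIs left 2 and 1 outside barcodes and was not run, and leaving out 1 of the 2 libraries there left no residual degrees of freedom. Depth limits AML 1 (9 cells) and genes with few UMIs.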
